A study of Mus musculus with 2 samples.

Results

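Lef1 peaks at 10 genes that encode transcription factors of the T cell and CD4 lineage were examined in mouse CD4+ T cells. The genes were Bcl11b, Gata3, Zbtb7b, Runx1, Runx3, Ets1, Ikzf1, Tox, Myb and Rora, and a peak was taken where it overlapped a gene body or lay within 50 kb of its ends (mm10 coordinates). By that rule 5 of the 2052 listed peaks, or 0.244%, lay at 4 of the 10 genes.

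The peaks came from chromatin immunoprecipitation followed by sequencing with the anti-Lef1 antibody C18A7. There was 1 library of splenic conventional CD4+ T cells (TCRb+, CD4+, CD25-) from wild-type C57BL/6 mice aged 8 to 10 weeks, and 1 of TCRb+ CD4+ T cells from CD4-Cre+ Lef1 fl/fl mice on the same strain, which served as the control of the peak calls. CD4-Cre is active in T cells from the thymus onward, so that deletion of Lef1 is directed at T cells. How fully Lef1 was lost in the control cells cannot be read from the peak list. The series text also describes the wild-type cells as GFP-negative, although no reporter allele is named, and the labels call the tissue of either library naive CD4 T cells while giving all CD4 T cells as the source of the control. The gates may therefore have differed between the libraries. Neither library was replicated and their read depth is unknown, so every value below describes a single set of calls and no difference was tested. Occupancy does not report expression, so the labelled cell type could not be checked against marker levels. Among T cell marker genes 3 of 7 had a peak by the same rule (Cd247, Cd28 and Lck, but not Cd4), among CD8 T cell markers 0 of 2, myeloid markers 0 of 4 and NK cell markers 0 of 3. The peaks counted at Lck lay outside its body and closer to Fam167b and Eif3i than to Lck. Of all protein-coding genes 15.5% had a peak by this rule, so that counts of 0 in lists this short say little.

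Lef1 belongs to the TCF/LEF family, whose members bind DNA through an HMG box and recognise words around CTTTG. T cells reach their identity through a network of such sequence-specific factors. Bcl11b and Gata3 act in the commitment of thymocytes to the T lineage, Zbtb7b (ThPOK) and Runx3 oppose each other in the choice between CD4 and CD8 fate, and Ikzf1 (Ikaros) and Ets1 act broadly in lymphocytes. In thymocytes Lef1 and its relative Tcf1 take part in the choice of CD4 fate and act on Zbtb7b.

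The share of these genes with a peak was above that of the annotated genes at large, as a description of these counts alone. The genes were chosen with earlier results of these data known, so this difference is not independent of that choice. A peak lay inside or within 50 kb of 4 of the 10 lineage factor genes, against 15.5% of 21887 protein-coding genes and 16.3% of the autosomal ones. Inside the gene body lay a peak at 3 of 10, against 4.51%. Long genes offer more room for a peak, and the lineage factor genes are long. Of protein-coding genes with a body over 100 kb, 21.0% had a peak by the 50 kb rule and 13.2% had a peak inside, and of the 4 lineage factor genes of that length (Runx1, Ets1, Tox and Rora) 2 had a peak and 1 had a peak inside. Of genes of 20 to 100 kb, 17.6% had a peak and 5.85% had a peak inside, while among Bcl11b, Gata3, Runx3, Ikzf1 and Myb there were 2, both inside. Zbtb7b was the only member under 20 kb and had none, in a class where 12.9% had a peak and 1.87% had a peak inside. Over the 2.71 Mb of the 10 windows the density was 1.85 peaks per Mb (95% exact Poisson interval 0.599 to 4.31, for counting error only). That interval takes the 2 neighbouring peaks at Runx1 as separate. With neighbours within 1 kb merged the density was 1.48 per Mb. Over the combined windows of all protein-coding genes, without merging, the density was 0.989 per Mb, a value inside the interval.

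**Figure D1:**
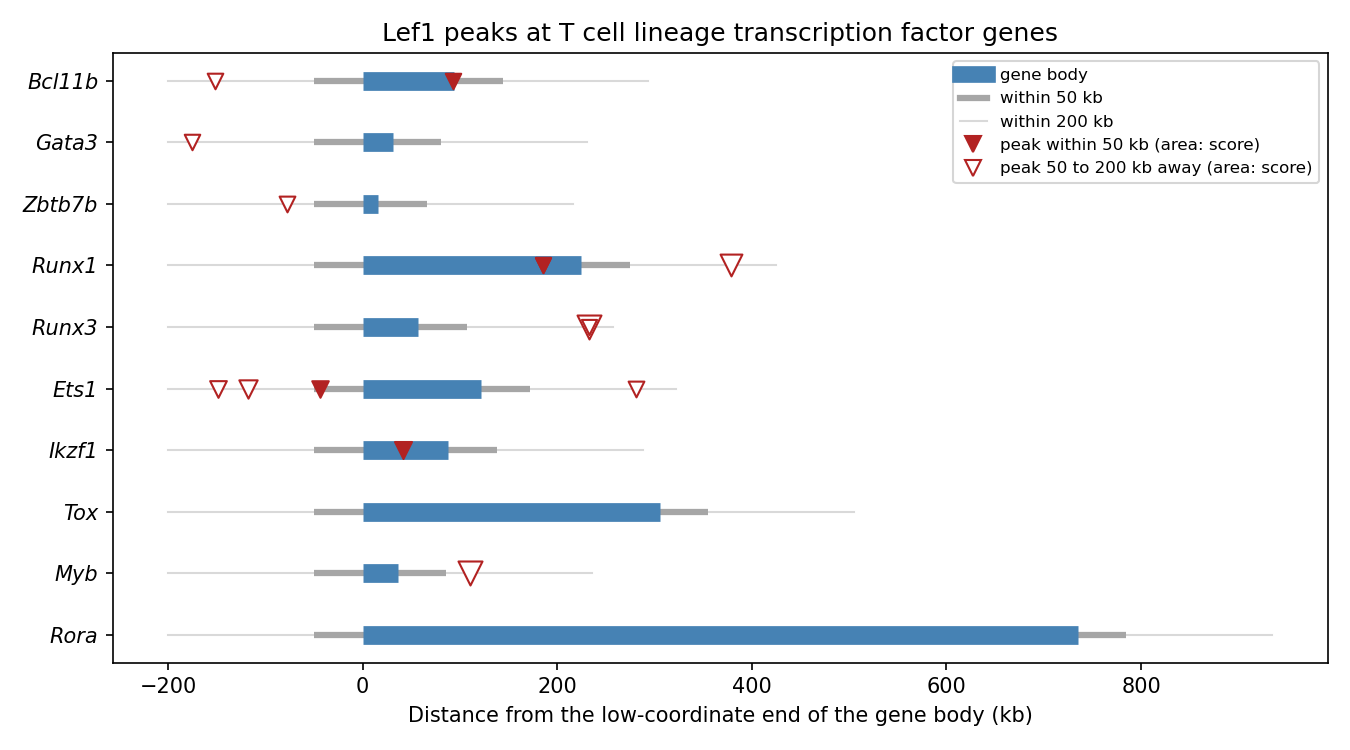
Positions of listed Lef1 peaks at the 10 genes, in kb from the low-coordinate end of each gene body, with triangle area proportional to the score. Filled triangles mark the 5 peaks inside or within 50 kb of Bcl11b, Runx1 (2 peaks that overlap at this scale), Ets1 and Ikzf1, and open triangles the 10 peaks 50 to 200 kb away, the largest of them at Myb, Runx3 and Runx1.

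The scores of the 5 peaks lay on both sides of the middle of the list, and none was at its top. The score of a peak is its p-value from the peak caller written as −log10. A higher score marks stronger evidence for an excess of reads, not the size of that excess. In the whole list the score ran from 4.01 to 38.17 with a median of 4.40. That median was itself the score of 828 peaks, or 40.4% of the list, with 30.6% above it and 29.0% below. The 5 peaks had scores of 4.08 to 5.12 with a median of 4.23. Of them 2, at Ets1 and Ikzf1, scored above the list's median, and the 3 at Bcl11b and Runx1 scored below it. The Ikzf1 peak also stood above the list's upper quartile of 4.99. In width they ran from 78 to 172 bp with a median of 112 bp, against a median of 79 bp in the list, and all but the one at Ets1 were wider than that.

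**Figure D2:**
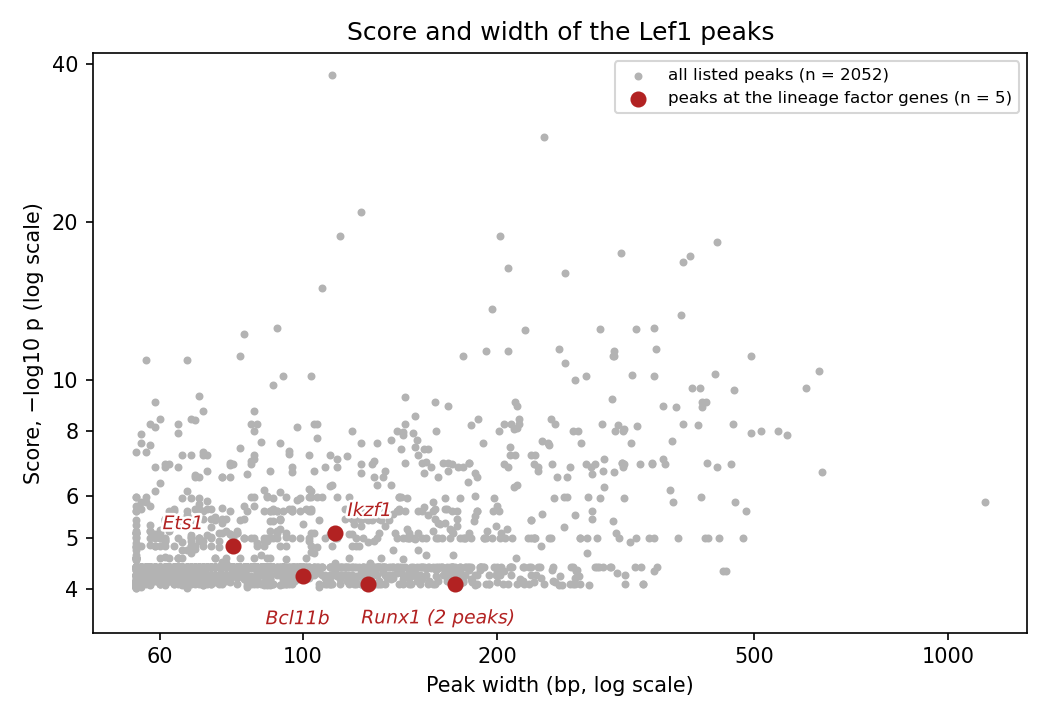
Score (−log10 p) against width in bp for every listed peak, both on log axes, with the 5 peaks at the lineage factor genes in red. The Bcl11b and Runx1 peaks lie in the dense band at and below the median score of 4.40, and the Ets1 and Ikzf1 peaks lie just above it at 4.83 and 5.12.

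Bcl11b, which encodes a zinc finger factor required for T lineage commitment, was the only lineage factor gene with a peak at a start site. The gene lies on chromosome 12 (107910403 to 108004145, minus strand), and its peak was at chr12:108003548-108003647, 100 bp wide, with a score of 4.23. In the list 1773 peaks, or 86.4%, scored higher, and 26 peaks had exactly this score. The peak covered the bases from 134 to 233 upstream of the annotated RefSeq start site at 108003414. It lay inside the gene body as annotated, 0.498 kb from its high-coordinate end, because that end is 731 bp beyond this start site. Of 17492 protein-coding genes with a promoter window in the RefSeq table (250 bases before to 50 after a start site), 239 genes or 1.37% had a peak on it, and of the 8 lineage factor genes in that table Bcl11b alone did. Ets1 and Tox are not in the table.

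Because the whole peak falls in this promoter window, its bases can be shown. They are printed on the minus strand, the gene's own, from 250 bases to 1 base before the start site (chr12:108003415-108003664, GRCm38.p6, from RefSeq), and capitals mark the peak.
Bcl11b: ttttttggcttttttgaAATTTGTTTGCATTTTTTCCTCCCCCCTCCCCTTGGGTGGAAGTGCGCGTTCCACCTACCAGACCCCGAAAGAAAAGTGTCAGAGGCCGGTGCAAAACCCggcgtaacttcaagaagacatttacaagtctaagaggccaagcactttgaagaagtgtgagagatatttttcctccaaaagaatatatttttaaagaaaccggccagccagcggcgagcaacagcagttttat

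The TCF/LEF words CTTTGAA and CTTTGAT were searched on both strands. The peak itself held neither, nor the shorter word CTTTG. On the gene's strand 1 match to CTTTGAA lay from 89 to 83 bases upstream of the start site, between the peak and that site. Over the same stretch as the peak, 134 to 233 bases upstream, 2.94% of 21263 promoter windows held CTTTGAA or CTTTGAT and 23.9% held CTTTG. In the full windows CTTTGAA or CTTTGAT occurred in 7.57%, and in the 263 windows with a peak in 20.2%. Among the lineage factor genes Bcl11b alone of the 8 had CTTTGAA or CTTTGAT in a promoter window. That was 1 of the 12 windows of these genes, close to the 7.57% of all windows. The peak's 100 bases were 54% G or C and held 4 CpG pairs, against medians of 53% and 3 over the same stretch of all windows. The 250 printed bases as a whole were 44.8% G or C. The median for these upstream bases was 55.6% in all windows and 62.8% in those with a peak.

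Gata3, a zinc finger factor needed for early T cell development and for CD4 T cells, had no peak within 50 kb (chromosome 2, 9857078 to 9887953, minus strand). Its nearest peak lay 175.1 kb below the gene body, or 196.7 kb downstream of its annotated start site, with a score of 4.25 (chr2:9681907-9681985). No other protein-coding gene was nearer to that peak. On the other side the next listed peak was 1316 kb away, in Prkcq.

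Of the genes that set CD4 against CD8 fate, Runx1 had peaks and Zbtb7b, Runx3 and Tox had none. Runx1, which takes part in the silencing of Cd4 in early thymocytes, lies on chromosome 16 (92601466 to 92826074, minus strand). Its 2 peaks were neighbours, at chr16:92786641-92786812 (172 bp, score 4.09) and chr16:92786874-92786999 (126 bp, score 4.08), and the distance from the one to the next was 62 bp. Merged as neighbours within 1 kb they count as a single place. Both scored below the list's median, with 93.6% and 94.7% of the list above them, but 14.6% and 24.8% of the list, respectively, were wider than they were. They lay between the annotated start sites of Runx1, their centres 39.3 and 39.1 kb, respectively, downstream of the distal start site (92826074) and 89.4 and 89.6 kb upstream of the proximal one (92697329).

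Runx1 also had a peak of higher score outside the 50 kb limit. At 154.1 kb above the gene body, upstream of both start sites, lay a 216 bp peak with a score of 8.43 (chr16:92980127-92980342). Runx1 was its nearest protein-coding gene, and 62 peaks, or 3.02% of the list, scored higher.

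Runx3, which drives CD8 fate and silences Cd4 in CD8 T cells, had no peak within 50 kb (chromosome 4, 135120645 to 135177990, plus strand). The nearest lay 175.4 kb beyond its high-coordinate end, 232.8 kb downstream of the first start site, and had a score of 10.16 over 93 bp (chr4:135353419-135353511). That peak lay 0.142 kb from Srrm1, with a second of score 4.08 beside it, so another gene stood far closer to it than Runx3.

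Zbtb7b, the factor that holds thymocytes to the CD4 fate, had no listed peak in its window either (chromosome 3, 89377644 to 89393673, minus strand). The window holds 10 other protein-coding genes, the most of any lineage factor gene, and no peak lay in any of them there. The nearest peak was 77.9 kb below Zbtb7b with a score of 4.40, and it was closer to Efna3, at 14.2 kb (chr3:89299629-89299699).

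Tox, an HMG-box factor needed for CD4 T cell development, was the farthest from any peak. Its body covers 305.2 kb of chromosome 4 (6686353 to 6991557), and the nearest peak was 996 kb above it, with a score of 5.63 (chr4:7987570-7987659). Below it the next was 2772 kb away. Of Cd4, Cd8a and Cd8b1, the coreceptor genes on which several of these factors act, 0 of 3 had a peak. Of all protein-coding genes 15.5% had one, so a count of 0 in a list this short says little.

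Ikzf1 and Ets1, which act in most lymphocytes, had the higher scores among the 5 peaks. Ikzf1 encodes the zinc finger protein Ikaros (chromosome 11, 11684962 to 11772930, plus strand). Its peak lay inside the gene at chr11:11725939-11726050, 112 bp wide, with a score of 5.12, and 20.8% of the list scored higher. The centre was 40.1 kb and 35.8 kb downstream of the annotated start sites, near the middle of the gene body. This was an isolated peak: the next ones were 472.0 kb from the gene on the low side and 3987 kb from it on the high side.

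Ets1, the founding ETS family factor, had its peak outside the gene (chromosome 9, 32636241 to 32757820). The peak was at chr9:32592151-32592228, 78 bp wide, 44.0 kb below the low-coordinate end, with a score of 4.83 and 27.0% of the list above it. The neighbouring gene on that side is Fli1, another ETS family gene, whose body lay 48.7 kb from the same peak, so that the peak falls in the windows of both. Fli1 had 2 further peaks inside its body, of scores 4.94 and 5.95, at 148.6 and 117.6 kb from Ets1. With a peak of 4.40 on the other side at 159.1 kb, Ets1 had 4 peaks within 200 kb, the most of the 10 genes.

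Myb and Rora had no peak within 50 kb. Myb encodes a factor needed at several steps of thymocyte development (chromosome 10, 21124930 to 21160984, minus strand). At 74.2 kb above the gene body, upstream of the start site, lay a peak of 350 bp with a score of 10.20 (chr10:21235176-21235525), the highest score within 200 kb of any of the 10 genes. In the list 36 peaks, or 1.75%, scored higher. It lay between Myb and Hbs1l and was 60.5 kb from the latter, so Hbs1l was its nearest gene. The stretch between these genes is known for distal enhancers of Myb in erythroid cells. Rora, a nuclear receptor gene used in innate lymphoid cells and Th17 cells, has the longest body of the 10 at 734.8 kb (chromosome 9, 68653404 to 69388246, plus strand). Its nearest peak was 420.9 kb below it with a score of 4.40, and the next above was 1115 kb away.

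The 50 kb limit fell in a gap. The Ets1 peak at 44.0 kb was the last inside it, and the Myb and Zbtb7b peaks at 74.2 and 77.9 kb were the first outside. Within 100 kb 6 of the 10 genes had a peak, against 24.6% of protein-coding genes. Within 10 kb 3 of 10 had a peak, against 7.33%. Within 200 kb there were 8 of 10, against 38.2%. The median distance from a gene body to the nearest peak was 76.1 kb for the 10 genes and 317.2 kb for all protein-coding genes. The 3 peaks of at least score 8 within 200 kb, at Myb, Runx3 and Runx1, were all outside the 50 kb limit.

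**Figure D3:**
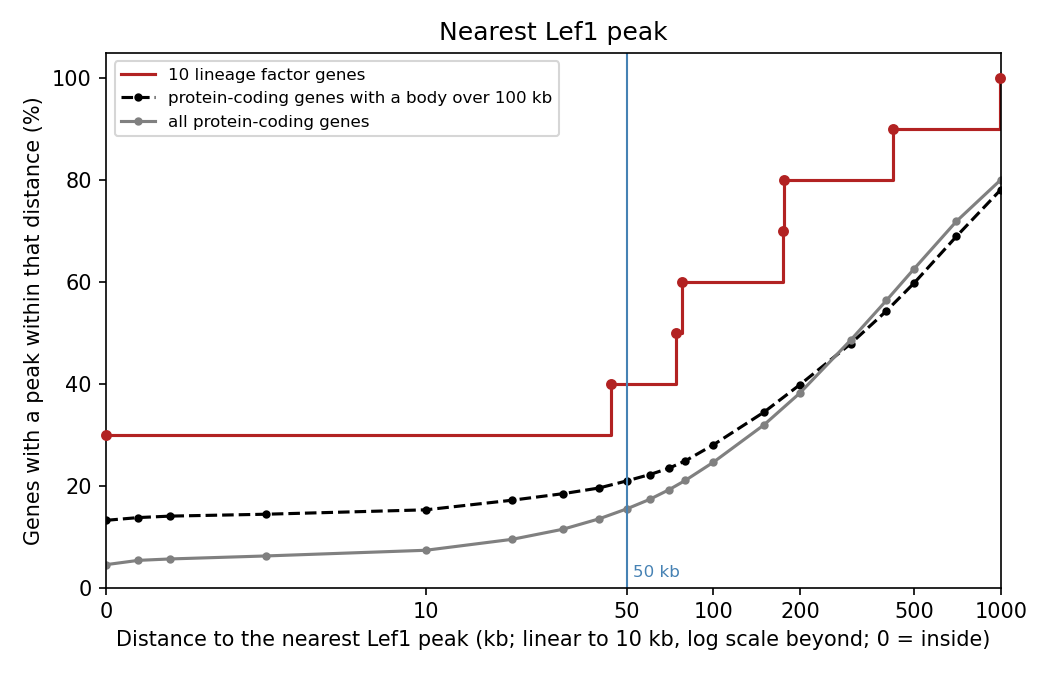
Share of genes whose nearest listed Lef1 peak lies within a given distance of the gene body in kb (linear to 10 kb, log scale beyond, 0 meaning inside), for the 10 lineage factor genes (red steps, a point per rise), for protein-coding genes over 100 kb (dashed) and for all protein-coding genes (grey). The red line starts at 30% and reaches 40% at Ets1, 80% by 200 kb and 100% at Tox, above both other lines throughout.

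A gene without a listed peak may still have had a call that was not listed. The peak names carry running numbers in genomic order that reach 33876, of which the list holds 6.06%, so most calls were not listed and their places are unknown. Between the listed peaks that flank each gene body, the skipped numbers came to 49 over 4.07 Mb at Tox, 33 over 2.27 Mb at Rora, 23 over 1.52 Mb at Gata3, 14 over 0.892 Mb at Myb, 16 over 0.565 Mb at Zbtb7b and 11 over 0.603 Mb at Runx3. Per Mb these genes ranged from 12.0 at Tox to 28.3 at Zbtb7b. The genes with a peak ranged from 8.36 at Ikzf1 to 27.9 at Bcl11b, which overlaps the range of those without. Across the autosomes the skipped numbers ran from 11.0 to 14.6 per Mb.

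Other regulators, taken from lists of related genes, were counted by the same rule, beside the 15.5% of all protein-coding genes. These lists were not split by gene length. Of protein-coding genes with a body over 100 kb, 21.0% had a peak, so the shares below are not matched for length. Of 21 paralogs of the lineage factor genes 6 had a peak within 50 kb (28.6%). Runx2, a second relative of Runx1, had a peak of 4.99 inside its body, and Mybl1, a relative of Myb, had 1 of 4.40 inside. Ets2 had a peak of 5.12 at 28.8 kb. Those of Zbtb7a (4.11), Ikzf4 (4.01) and Gata4 (4.25) lay closer to other genes. These paralogs were relatives of members with a peak (Runx1, Ets1 and Ikzf1) and of members without (Gata3, Zbtb7b, Runx3 and Myb).

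Of 19 partners and other regulators of T cell development 6 had a peak (31.6%). Cbfb, the subunit that all RUNX proteins share, had a peak of 4.40 inside its body. Fli1 had the 3 described above, and Elf1, also of the ETS family, had 2 of 4.25 inside and 1 of 4.99 at 4.84 kb. Foxp1, a factor of T cell quiescence, had 2 inside, of 4.99 and 4.04. Tcf4, which encodes an E protein and not a TCF/LEF factor, had 2 inside, of 6.70 and 4.99, and Ldb1, a cofactor of GATA complexes, had 1 of 4.06. Of 12 regulators of effector CD4 lineages 2 had a peak (16.7%), near the share of all protein-coding genes, namely Stat4, with 4.37 inside and 4.99 at 6.65 kb, and Prdm1, with 4.99 and 4.14 inside. Of 10 regulators of other blood lineages, Pax5, Ebf1, Spi1, Cebpa, Nfil3 and Zbtb16 among them, 0 had a peak. Beside the 15.5% of all protein-coding genes, a count of 0 in a list this short says little.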

How the data were processed

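The authors deposited a single list of peaks called on the wild-type library against the Lef1-deficient library, with a −log10 p-value as the score of each peak, per the file headers. Per the submitters' processing notes, the tools were FastQC, Bowtie2 2.3.4.1 and MACS2 2.1.1, with the mm10 build and with parameters not given in the sources used here. Starts were read as 0-based and raised by 1.

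Gene bodies (protein-coding, autosomes, X and Y) and promoter windows came from RefSeq tables of GRCm38.p6, the assembly behind mm10. A peak counted at a gene when any base lay inside the body or within 50 kb of it. All members and all their peaks are named, and of the other lists every gene with a peak. With 1 library a group no test was made. The exact Poisson interval (95%) covers counting error only. No genome sequence was used, so peaks outside promoter windows have no bases here, and no exon or intron is given. Counts were made with Python 3.11.15, pandas 2.3.3 and SciPy 1.17.1. Members and lists were chosen with earlier results of these data known. Alternatives were other distances, higher score limits, merged neighbours, peak centres, nearest-gene assignment and other motif words. The list of B cell markers is not reported here.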

Additional observations from a re-analysis of the deposited data

How the results depend on the processing

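The count of 4 lineage factor genes with a peak stood at 3 within 10 kb or inside the body, 6 within 100 kb, and 4 with merged neighbours, peak centres or the nearest gene alone. It fell to 2 genes with 2 peaks (Ets1 and Ikzf1) above the median score and to 0 genes, 0 peaks and 0 peaks per Mb at a score of at least 8. Added after the data were seen, 200 kb gave 8 genes and 15 peaks. The share of all protein-coding genes with a peak moved from 15.5% to 7.33% (10 kb), 24.6% (100 kb), 4.51% (inside), 38.2% (200 kb), 5.84% (above the median score), 0.932% (score of at least 8) and 16.3% (autosomal genes, added later). Promoter windows with CTTTGAA or CTTTGAT were found at 1 member, with CTTTG at 4 and with CTTTGATC or CTTTGAAC at 0. The median score ran from 4.16 to 4.53 across the distances and merging. These are 5 peaks from 1 library of unknown depth, and the lack of a peak at a gene means only that the deposited list, whose filter is not known in full, holds none there. No paired analysis was possible because there was no replicate in either group, and no replicate could be left out.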

Other observations

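Words of other factor families were counted in the 12 promoter windows of the 8 lineage factor genes in the RefSeq table. The ETS words AGGAAG and CGGAAG occurred in 5 of the 12 windows (at Bcl11b, Ikzf1, Runx1 and Zbtb7b), against 48.5% of all windows. At Bcl11b they did not occur in the stretch printed above. The RUNX words TGTGGT and TGCGGT occurred in 3 of the 12 (at Runx1, Runx3 and Zbtb7b), against 21.6% of all windows, and the GATA words AGATAA and TGATAA in 0, against 15.9%. The short word CTTTG occurred in 5 of the 12 (at Bcl11b, Ikzf1, Myb and Runx1), against 51.2%.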
